A study of Mus musculus with 42 samples.

Results

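Trim71-dependent association of RNA with Tnrc6a was measured in the second of 2 RNA immunoprecipitation experiments in mouse embryonic stem cells. The comparison used 12 of the 42 libraries of the series, chosen by their labels: bead-bound RNA (IP) and lysate RNA (input), 3 replicates each, from cells with tagged Tnrc6a and from cells with tagged Tnrc6a that are also labelled Trim71KO. The quantity examined was the difference between the genotypes in the log2 ratio of IP to input. A negative difference means that less of an RNA came down with Tnrc6a, relative to its level in the lysate, in the libraries labelled Trim71KO.

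All cells of the experiment descend from 129S6/SvEvTac stem cells that carry the reporter yGlob [GFP_5xT71BS] and a stable transfection of FLAG-Cas9::T2A::Blasticidin, so the controls hold these too. Tagged cells bear HA-AVI-Tnrc6a, and the compared cells bear HA-AVI-Tnrc6a together with Trim71-/-. Untagged cells and cells with HA-AVI-Tnrc6a and Ago2-/- belong to the same experiment, and their 12 libraries entered the model and are quoted beside the results. Cells grew with LIF (leukemia inhibitory factor) on gelatin, and 3 dishes per genotype were grown to confluency. Lysates were bound to magnetic beads that carry an antibody to HA. Whether a genotype is a single clone, and which part of Trim71 was removed, is not given in the sources used here.

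Tnrc6a belongs to the GW182 family, adaptor proteins that bind Argonaute proteins and recruit the deadenylases that shorten poly(A) tails, which leads to repression and decay of the bound mRNA. Argonaute proteins are led to mRNAs by microRNAs, which pair through their seed, the bases near the 5′ end. Trim71 is a TRIM-NHL protein of early embryos and stem cells whose NHL domain binds hairpins in mRNAs, so an mRNA can be linked to Tnrc6a through a microRNA or through Trim71. In mouse embryonic stem cells the miR-290 family is the most prominent group of microRNAs.

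The mature miR-290 family members below are shown because mRNAs that earlier work names as their targets serve as the microRNA side of the comparison. The last sequence is shown because its hairpin lies inside Pank3, the gene with the largest fall. Capitals mark the seed, bases 2 to 8, and the sequences are those of RefSeq on GRCm38.p6.

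mmu-miR-291a-3p: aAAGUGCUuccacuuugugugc

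mmu-miR-294-3p: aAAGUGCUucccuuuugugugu

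mmu-miR-295-3p: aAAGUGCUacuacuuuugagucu

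mmu-miR-290a-3p: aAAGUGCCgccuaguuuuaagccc

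mmu-miR-103-3p: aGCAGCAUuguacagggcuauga

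The first 3 share the seed AAGUGCU, and miR-290a-3p has AAGUGCC in its place. They lie on the plus strand of chromosome 7 between chr7:3218674-3218697 (miR-290a-3p) and chr7:3220815-3220837 (miR-295-3p). The seed of miR-103-3p is GCAGCAU, and its mature sequence is at chr11:35782447-35782469.

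The 12 libraries held 17083684 to 21026552 counts over genes. Replicates of each group differed by more than sampling noise, with a chi-square per gene of 4.18 to 64.1. Tagged IP replicate 1 stood apart, at 39.4 and 64.1 against the other tagged IP replicates, so some results are given without it too. Of the 10 stem cell markers (such as Pou5f1, Nanog and Esrrb) all 10 were measured, and their summed level was 8143 to 8343 CPM (counts scaled to 1e+06 per library) in tagged input and 9139 to 9387 CPM in Trim71KO input. Against the sum, the mean input of Esrrb went from 814 to 801 CPM and that of Dppa5a from 1106 to 1045 CPM. Of 7 markers of feeder fibroblasts 2 were measured, with a summed level of 34.0 to 35.9 CPM in tagged input and 49.8 to 52.2 CPM in Trim71KO input. The rise was in Thy1 alone (mean 29.9 to 46.9 CPM), while the collagen gene Col1a1 fell (5.06 to 3.98 CPM). Of 5 markers of primitive endoderm 4 were measured, at 13.0 to 14.4 CPM in tagged and 4.65 to 5.63 CPM in Trim71KO input. The 3 neuroectoderm markers summed to 21.3 to 23.8 CPM in tagged and 12.4 to 17.2 CPM in Trim71KO input, and 2 of 3 mesoderm markers were measured, at 9.72 to 11.4 and 11.5 to 14.3 CPM. Of these mesoderm markers Eomes rose (mean 9.93 to 12.9 CPM) and T fell (0.490 to 0.252 CPM). The part of these marker differences in the results was not tested.

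The targeted genes were examined next. Trim71 mRNA stood at 309, 265 and 273 CPM in tagged input and at 368, 387 and 376 CPM in Trim71KO input. Every input library labelled Trim71KO lay above every tagged one, so the RNA level does not check the label, and each direction below refers to the libraries labelled Trim71KO. In IP, Trim71 mRNA stood at 730.1, 660.2 and 585 CPM in tagged libraries and at 436, 444 and 421 CPM in those labelled Trim71KO. It moved the other way there, and its IP over input fell from 2.33-fold to 1.15-fold, which is a change of -1.02 in log2 (SE 0.12, n = 3 per group, edgeR quasi-likelihood test with Benjamini-Hochberg adjustment over all genes, adjusted p 9.49e-06). Tnrc6a mRNA, which the beads recover with the tagged protein, stood at 24216, 17194 and 12945 CPM in tagged IP and at 21905, 17790.2 and 13725 CPM in Trim71KO IP. The genotypes overlapped, and the log2 difference in IP over input was -0.40 (SE 0.28, edgeR adjusted p 0.542). The ratio of Ago2 mRNA differed by 0.33 in log2 (SE 0.14, edgeR adjusted p 0.239).

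In the libraries labelled Trim71KO, 146 genes had lower and 149 had higher IP over input than in tagged cells, among 19778 genes tested. These are 0.738% and 0.753% of the genes tested, 1.49% together. The falls were larger than the rises. The 9 differences between an IP and an input library of tagged cells did not overlap those of Trim71KO cells for 141 of the lower and 140 of the higher genes, against 6.03% of all genes. The calls come from the same libraries and differences, so this describes the calls and gives no separate support. A change of at least 2-fold was reached by 47 of the lower genes (0.238% of genes tested) and by 10 of the higher genes (0.0506%), and the median log2 difference was -0.75 among the lower and 0.47 among the higher genes. Among genes with a mean of at least 2 on the log2 CPM scale, the falls were led by Pank3, Gm32031, Mbnl1, Spty2d1, Ier5, Nfib, Ndst1 and Ccng2, all with log2 differences of -1.50 or below.

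The leading falls were stable and the counts were not. Replicate numbers pair the 2 genotypes within IP and within input, and with the replicate number as a block there were 470 calls, 205 lower and 265 higher. With each IP blocked with the input of the same number there were 522, 233 lower and 289 higher. The share of higher calls, 50.5%, was 38.6% with RLE size factors, 75.7% with library size alone, 34.8% without a filter on low counts, 40% with a stricter one and 34.6% with only the 4 groups compared in the fit. Leaving out a library in turn gave 115 calls without tagged input replicate 1, 206 without replicate 2 and 134 without replicate 3. Without Trim71KO input replicates 1, 2 and 3 there were 142, 130 and 391 calls. Without tagged IP replicates 1, 2 and 3 there were 562, 127 and 252, and without Trim71KO IP replicates 1, 2 and 3 there were 429, 98 and 167. All 295 genes kept the sign of their difference in each of these 12 fits, and 55 lower and 18 higher genes kept their call in each of them. The other calls were lost, at the threshold of an adjusted p of 0.05, in at least 1 of these fits. Without Trim71KO IP replicate 2, 64 of the 146 lower and 32 of the 149 higher genes were called again, and without tagged input replicate 1, 80 and 31.

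**Figure D1:**
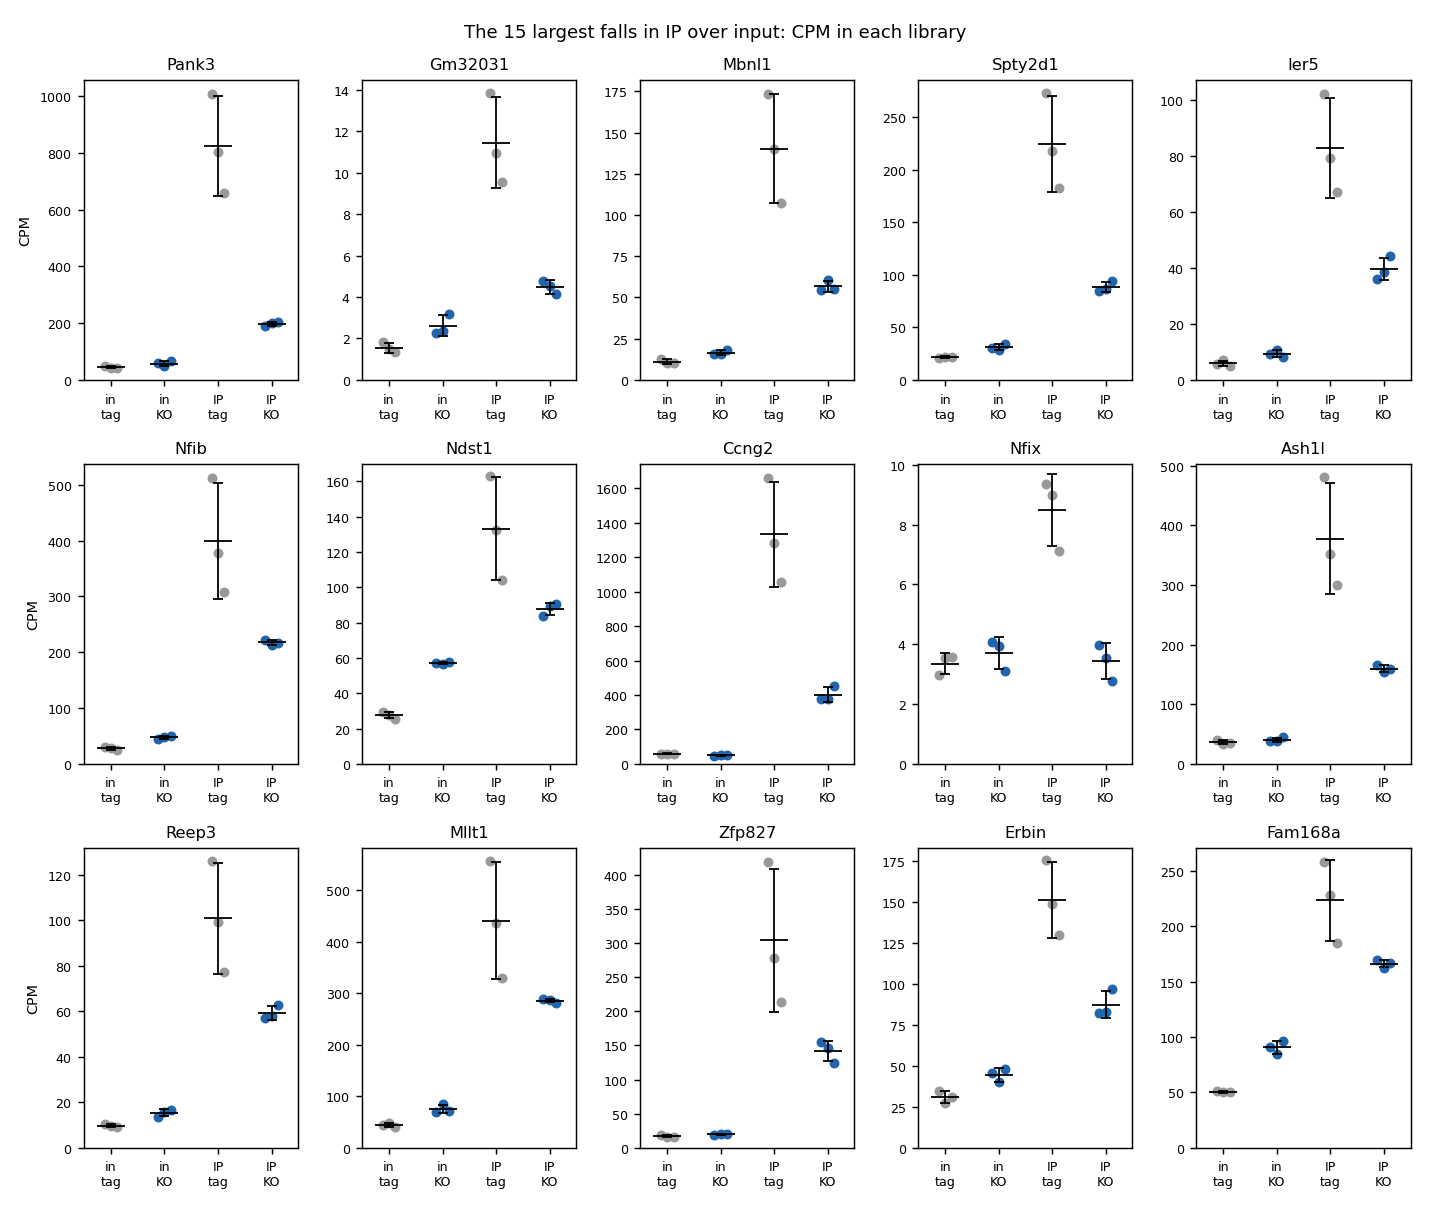
Level in CPM (y axis, from 0) of the 15 genes with the largest falls (mean of at least 2 on the log2 CPM scale, ratios not overlapping), in each library of tagged input (in, tag), Trim71KO input (in, KO), tagged IP (IP, tag) and Trim71KO IP (IP, KO). Points are the 3 libraries of a group, lines and bars mean ± SD, and in each panel the 3 Trim71KO IP libraries lie below all 3 tagged IP libraries.

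Pank3 encodes a pantothenate kinase, which starts the synthesis of coenzyme A. Its mRNA stood at 49.9, 42.5 and 41.9 CPM in tagged input and at 58.0, 48.8 and 66.1 CPM in Trim71KO input. In IP it stood at 1008, 803 and 658 CPM in tagged cells and at 191, 201 and 203 CPM in cells labelled Trim71KO. The IP groups were far apart, while the input groups overlapped at 1 library each, with a small rise (edgeR adjusted p 0.0407 in input). IP over input was 18.4-fold in tagged and 3.44-fold in Trim71KO libraries, so that the log2 ratio differed by -2.42 (SE 0.18, edgeR adjusted p 1.18e-08). In untagged cells the ratio was 0.837-fold, so a part of the recovery was left, and in Ago2KO cells it was 9.23-fold. The hairpin of miR-103-1, chr11:35782396-35782481, lies inside the bounds of Pank3, chr11:35769495-35791285, and whether reads came from the host mRNA or from its introns is not separated by the deposited counts. Of 7 genes of coenzyme A synthesis tested, Pank3 was the 1 called, and the list's median log2 difference was 0.02 against 0.01 over all genes.

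Mbnl1 encodes a muscleblind splicing factor and is among the mRNAs reported as TRIM71 targets. It stood at 174, 139.8 and 108 CPM in tagged IP and at 54.5, 60.6 and 55.1 CPM in Trim71KO IP. Its input was 12.8, 10.2 and 10.1 CPM in tagged cells against 15.6, 16.0 and 18.2 CPM in those labelled Trim71KO. The groups did not overlap in either fraction and moved in opposite directions, IP down and input up. The log2 difference in IP over input was -1.89 (SE 0.21, edgeR adjusted p 9.49e-06). Among 20 muscleblind and other splicing regulators tested Mbnl1 was the only call, and the list's median was 0.06.

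Spty2d1, which encodes a histone chaperone of the SPT2 family, and the predicted gene Gm32031 are neighbours on chromosome 7. Spty2d1 spans chr7:46990396-47008414 and Gm32031 starts 139 bases beyond it, at chr7:47008554-47009008. Spty2d1 stood at 272, 217 and 182 CPM in tagged IP and at 84.9, 86.8 and 93.6 CPM in Trim71KO IP. Gm32031 stood at 13.8, 10.9 and 9.55 CPM and at 4.78, 4.52 and 4.12 CPM in the same groups. The 2 transcripts fell together, by log2 differences of -1.88 (SE 0.17, edgeR adjusted p 1.69e-07) and -2.10 (SE 0.31, edgeR adjusted p 0.000313). Gene bounds here do not show which transcript the reads of this stretch belong to.

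Ccng2 encodes cyclin G2, an atypical cyclin linked to cell-cycle arrest. Its input was not called, though it lay lower in each Trim71KO library, at 55.5, 58.8 and 59.9 CPM against 47.6, 48.6 and 52.3 CPM. In IP it stood at 1662, 1285 and 1056 CPM in tagged and at 375, 379 and 453 CPM in Trim71KO libraries, and the IP groups did not overlap. IP over input went from 22.99-fold to 8.12-fold, which is a change of -1.50 in log2 (SE 0.21, edgeR adjusted p 0.000123), and was 18.9-fold in Ago2KO cells.

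Regulators of transcription and chromatin made up 40 of the 146 lower genes, against 21 of the 149 higher genes. This and the other functional groups were sorted by hand after the calls were seen, so their sizes describe the calls and were not tested, and the examples in them were picked with their values known. Only called genes are counted in these groups. No share of a group over all genes is available, so the sizes do not show that a function is over-represented. Nfib and Nfix, DNA-binding factors of the nuclear factor I family, fell by 1.66 and 1.46. Nfib stood at 513, 377 and 307 CPM in tagged IP and at 222, 214 and 217 CPM in Trim71KO IP, while its input rose from 27.7 ± 2.22 to 47.7 ± 2.94 CPM (SD, n = 3). The IP groups thus stood apart in a direction opposite to the input. The histone methyltransferase gene Ash1l fell by 1.41, Mllt1 of the elongation machinery by 1.39, the corepressor gene Rcor1 by 1.05 and the cell-cycle transcription factor gene E2f3 by 1.01. The E2f3 call was kept in 9 of 12 fits that left out a library, and those of the other named genes of this group in all 12. Of the 40, 38 were also called lower in experiment 1.

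Numbered zinc finger genes, most of which encode DNA-binding proteins, were called lower in 11 and higher in 4 of 457 tested. These are 2.41% and 0.875%, against 0.738% and 0.753% of all genes. The list's median was 0.04, against 0.01 over all genes. Zfp827 (-1.32), Zfp280b (-1.21), Zfp148 (-1.19) and Zfp180 (-1.09) fell most, and Zfp217 (0.49) and Zfp395 (0.41) were among those that rose. Of these 6, Zfp180, Zfp217 and Zfp395 lost their call in some fits without a library, at edgeR adjusted p values of up to 0.0595 (Zfp180 without tagged input replicate 3), 0.0705 and 0.131 (Zfp217 and Zfp395 without Trim71KO IP replicate 3). With settings other than leaving out a library, the lower calls ran from 9 to 16 and the higher from 1 to 9. Over the fits without a library the lower calls ran from 5 (without tagged input replicate 2 or 3 or Trim71KO IP replicate 2) to 15 (without tagged IP replicate 3). The higher calls ran from 0 (without Trim71KO IP replicate 3) to 10 (without tagged IP replicate 1).

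Of 23 genes of the Hippo pathway, which restrains the coactivators Yap and Taz, 4 were called lower (17.4%, against 0.738% of all genes) and 0 higher. These were the kinase gene Lats1 (-0.85), its coactivator gene Mob1b (-1.20), the upstream kinase gene Taok1 (-0.75) and Tead4 (-0.50), which encodes a transcription factor that Yap binds. Mob1b stood at 112, 101 and 89.9 CPM in tagged IP and at 75.7, 72.1 and 74.4 CPM in Trim71KO IP, with input of 29.0, 22.8 and 21.8 CPM against 41.6, 39.8 and 42.9 CPM. IP fell and input rose without overlap (log2 difference in the ratio -1.20, SE 0.15, edgeR adjusted p 1.79e-05). Tead4 was different, since its IP rose too, from 49.9 ± 3.82 to 65.2 ± 4.91 CPM, and its input rose more, from 28.2 ± 0.815 to 52.4 ± 5.31 CPM (SD, n = 3). The calls of Mob1b and Taok1 were kept in all 12 fits without a library. Those of Lats1 and Tead4 were kept in 4 and 5, with edgeR adjusted p values of up to 0.108 (Lats1 without Trim71KO input replicate 1) and 0.109 (Tead4 without tagged IP replicate 2). The list's median was -0.00, and 12 of the 23 genes lay below 0, as did 9649 of all 19778 genes.

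Signalling genes made up 16 of the lower genes. Besides the Hippo members they include Ier5, an immediate early gene of the growth and heat shock response (-1.72), Erbin, a scaffold of ErbB2 receptors (-1.31), and the plexin receptor gene Plxnb2 (-0.77). Ier5 stood at 102, 79.4 and 67.1 CPM in tagged IP and at 36.2, 38.7 and 44.2 CPM in Trim71KO IP. Its tagged IP libraries all lay above the others, and in Ago2KO cells its ratio was 20.8-fold, against 14.1-fold in tagged and 4.26-fold in Trim71KO cells. Of 27 immediate early genes tested Ier5 was the 1 called lower, while Nr4a1 (0.50) and Klf4 (0.38) were called higher. These are 3.70% lower and 7.41% higher, against 0.738% and 0.753% of all genes. The Nr4a1 call was kept in 5 of 12 fits without a library (edgeR adjusted p up to 0.137, without Trim71KO IP replicate 3).

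Genes of the ubiquitin and SUMO pathways were found on both sides, 11 among the lower and 18 among the higher genes. The deubiquitinase genes Atxn3 (-1.10) and Yod1 (-0.97), the ligase gene Zfp91 (-1.04), the SUMO protease gene Senp5 (-0.91) and Dtl (-0.75), a substrate receptor of a cullin ligase, fell. The Yod1 call was kept in 4 of 12 fits without a library, the other 4 in all 12. Of 295 listed ubiquitin and F-box genes tested 4 were lower (1.36%) and 10 higher (3.39%), with a median of 0.05. Among all genes 0.738% were lower and 0.753% higher. Over the fits without a library 0 (without tagged input replicate 3) to 5 were lower. The higher calls ran from 3 (without tagged input replicate 1 or Trim71KO IP replicate 3) to 20 (without tagged IP replicate 1).

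Among enzymes, 2 genes of heparan sulfate synthesis fell and 1 rose, of 22 tested. These are 9.09% and 4.55%, against 0.738% and 0.753% of all genes. Ndst1, whose enzyme removes acetyl groups from heparan sulfate and adds sulfate, stood at 163, 133 and 104 CPM in tagged IP and at 83.8, 89.2 and 90.4 CPM in Trim71KO IP. Its input stood at 29.3, 27.8 and 25.6 CPM against 56.9, 56.3 and 57.6 CPM. Both fractions separated, with IP lower and input higher in the libraries labelled Trim71KO, and IP over input went from 4.83-fold to 1.54-fold (log2 difference -1.65, SE 0.20, edgeR adjusted p 1.79e-05). Hs2st1, a sulfotransferase gene, fell by 0.58, and Glce, the epimerase gene of the same pathway, rose by 0.62. The Glce call was kept in 4 of 12 fits without a library, with an edgeR adjusted p of 0.167 without Trim71KO IP replicate 3. The median of the list was 0.07.

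Of 9 lower genes of RNA binding and decay, Rc3h2 (-0.69) encodes a Roquin protein that represses mRNAs through hairpins, and Dcp2 (-0.58) the decapping enzyme. The Rc3h2 call was kept in 11 of 12 fits without a library (edgeR adjusted p 0.0524 without tagged input replicate 3) and that of Dcp2 in 2 (up to 0.0940, without the same library). Rbm3, a cold-induced RNA-binding protein gene, fell by 0.41 and kept its call in all 12. Of 43 sequence-specific RNA-binding regulators tested Rc3h2 was the 1 called lower, and 3 were called higher, Cpeb1 (0.82), Zfp36l1 (0.60), which promotes decay of AU-rich mRNAs, and Fmr1 (0.35). These are 2.33% lower and 6.98% higher, against 0.738% and 0.753% of all genes. Over the 12 fits without a library 0 to 5 of the 43 were called higher. The Zfp36l1 call was kept in 1 of these fits and that of Fmr1 in 4, with edgeR adjusted p values of up to 0.169 and 0.153, both without tagged input replicate 1.

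A second kind of lower gene was shorter and not recovered by the tag. Experiment 1 has its own tagged and untagged libraries, and its tag contrast (IP over input, tagged minus untagged) sorts the 146 lower genes with data that the present contrast does not use. It was called higher for 102 of them, lower for 33 and not called for 11. Of all genes tested in experiment 1, 28.2% were called higher and 29.1% lower in that contrast, 57.3% in all. The 102 genes had a median length of 6860.5 bases and a median IP over input of 0.897-fold in untagged, 3.99-fold in tagged, 2.00-fold in Trim71KO and 2.81-fold in Ago2KO cells. The 33 genes with a lower tag contrast had a median length of 1007 bases and ratios of 1.06-fold, 0.938-fold, 0.662-fold and 0.895-fold in the same order. Of the 102, 52 kept their call in each fit without a library, and of the 33, 1 did.

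Of the lower genes with low recovery, 6 belong to a group of 10 nuclear genes for ribosomal, mitochondrial and tRNA-charging proteins, a group with 0 higher genes. Another 17 are among the 28 lower pseudogenes, predicted genes and genes with no symbol. The mitochondrial ribosomal protein gene Mrpl23 stood at 22.9, 25.1 and 26.4 CPM in tagged IP and at 14.8, 15.5 and 16.0 CPM in Trim71KO IP. Its input did not separate, at 25.0, 26.9 and 24.5 CPM against 26.3, 26.9 and 22.7 CPM, and its IP groups did (log2 difference in the ratio -0.68, SE 0.12, edgeR adjusted p 0.00208). It was the 1 gene among the 10 to keep its call in all 12 fits without a library. Of 91 cytosolic ribosomal protein genes 3 were called lower, Rpl3l, Fau and Rps10 (3.30%, against 0.738% of all genes). Of the 91, 88 lay below 0, where 9649 of all 19778 genes did. Their median was -0.25 against 0.06 in experiment 1. The respiratory chain list had 1 call, Ndufs6, among 99 genes (1.01% lower), 89 of them below 0, with a median of -0.20 against 0.06 in experiment 1. For the ribosomal protein list 0 to 26 genes were called lower in the fits without a library, and in each of them its median stayed below that of all genes.

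**Figure D2:**
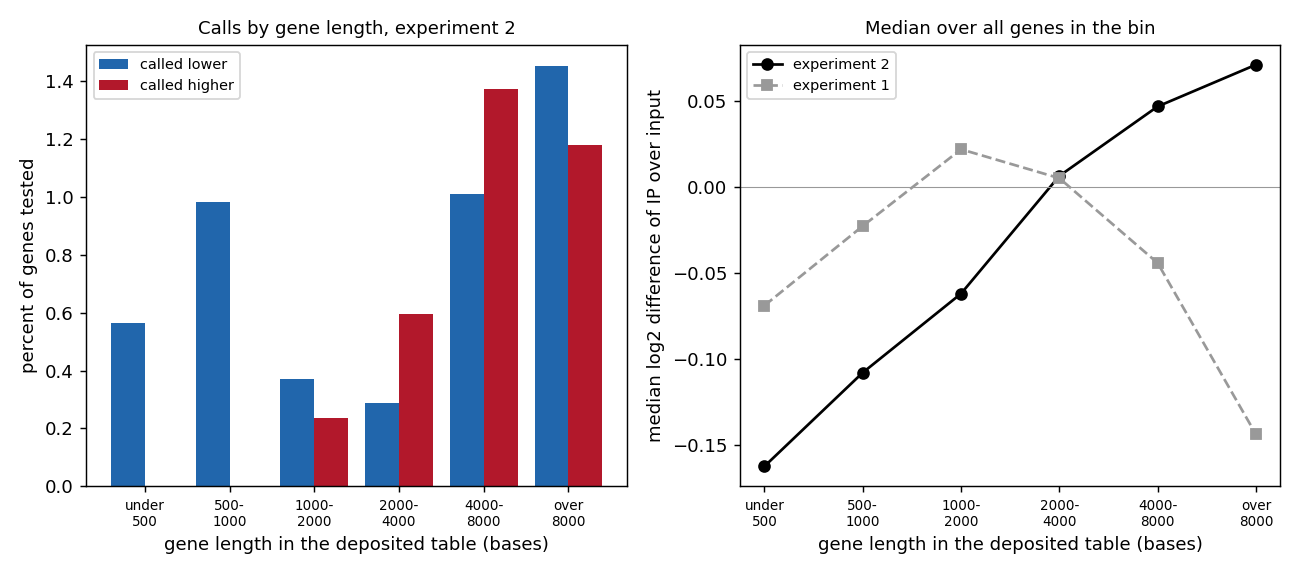
Left, percent of the genes tested that were called lower (blue) or higher (red) in each bin of gene length (x axis, bases). Right, median log2 difference of IP over input between genotypes over all genes of the bin in experiment 2 (circles) and experiment 1 (squares), which rises with length in experiment 2 from -0.16 to 0.07 and falls in experiment 1 from 0.02 at 1000 to 2000 bases to -0.14 over 8000 bases.

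The difference between genotypes moved with gene length over all genes. Its median rose bin by bin from -0.16 in genes under 500 bases to 0.07 in genes over 8000 bases. Of the 1241 genes under 500 bases 7 were called lower, of the 1731 genes of 500 to 1000 bases 17, and 0 genes under 1000 bases were called higher. Genes under 1000 bases took 3.92% to 4.10% of counts in tagged IP and 3.54% to 3.63% in Trim71KO IP, where they took 5.33% to 5.80% in the inputs. In experiment 1 the same medians went from -0.07 in the shortest to -0.14 in the longest bin. The part of length in the calls was not tested.

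The libraries also differed in how strongly the tag enriched. Over the 5233 genes called higher in the tag contrast of experiment 1, the median log2 ratio of an IP library to the mean input was 0.71, 0.59 and 0.52 in tagged replicates 1, 2 and 3. It was 0.72, 0.72 and 0.77 in the Trim71KO replicates and between -0.09 and -0.04 in untagged cells. All 3 Trim71KO libraries thus lay above the tagged ones, by the least against tagged replicate 1. Tagged IP replicate 1 was the highest of its group for 106 of the 146 lower and 112 of the 149 higher genes. All 5233 genes together had a median log2 difference of 0.14, and the part of this shift in the calls was not tested.

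**Figure D3:**
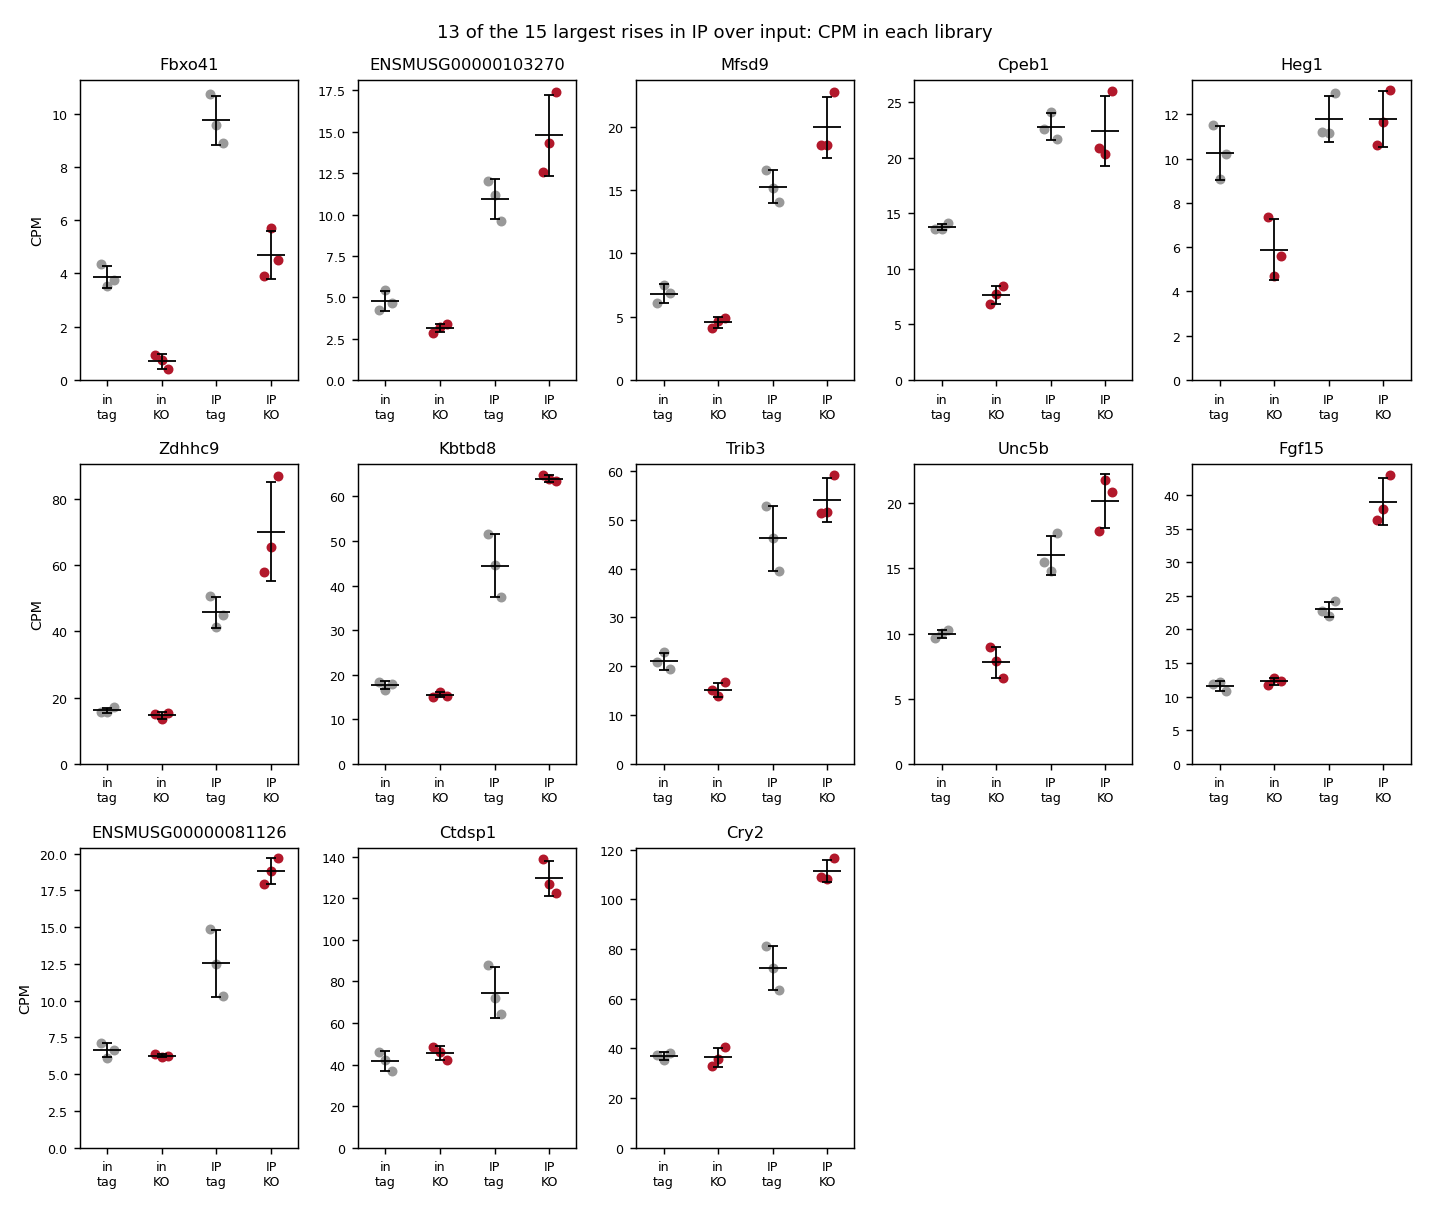
Level in CPM (y axis, from 0) of 13 of the 15 genes with the largest rises in IP over input (mean of at least 2 on the log2 CPM scale, ratios not overlapping), in tagged input (in, tag), Trim71KO input (in, KO), tagged IP (IP, tag) and Trim71KO IP (IP, KO). Points are the 3 libraries of a group and lines and bars mean ± SD; Cry2 and Kbtbd8 rose in IP, Fbxo41 fell in both fractions, and Cpeb1 fell in input alone.

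Of the 149 higher genes, 140 were called higher in the tag contrast of experiment 1, and these 140 had a median IP over input of 0.953-fold in untagged, 1.50-fold in tagged, 2.05-fold in Trim71KO and 1.32-fold in Ago2KO cells. Their median log2 difference was 0.46, against 0.14 over all 5233 genes of that tag class. The 140 were chosen by this same difference, so the higher median follows from the choice and is a description. Of the 10 rises of at least 2-fold, 7 were of genes with a mean under 2 on the log2 CPM scale or with overlapping ratios. The other 3 include Fbxo41 and a gene without a symbol.

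Cry2, which encodes a repressor of the circadian clock, stood at 81.5, 72.3 and 63.4 CPM in tagged IP and at 109, 108 and 117 CPM in Trim71KO IP. Its input overlapped, at 37.2, 35.4 and 38.4 CPM against 33.1, 35.7 and 40.5 CPM, so the IP alone separated the genotypes. IP over input went from 1.95-fold to 3.06-fold (log2 difference 0.65, SE 0.11, edgeR adjusted p 0.00229), and the call was kept in all 12 fits without a library.

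Ubiquitin ligase genes held 3 of the rises that did not depend on a library. Kbtbd8, an adaptor of a cullin ligase, stood at 51.5, 44.6 and 37.4 CPM in tagged IP and at 64.8, 63.8 and 63.4 CPM in Trim71KO IP, a log2 difference in the ratio of 0.72 (SE 0.13, edgeR adjusted p 0.00553). Marchf5, a ligase of the outer mitochondrial membrane, stood at 143, 136 and 132 CPM in tagged IP and at 189, 183 and 186 CPM in Trim71KO IP, with input of 109 ± 2.52 and 104 ± 0.503 CPM (SD, n = 3). Neither pair of IP groups overlapped. Marchf5 rose by 0.51 (SE 0.08, edgeR adjusted p 0.000679) and Rnf216, another RING ligase gene, by 0.53. The ratio of the F-box gene Fbxo41 rose by 1.42, but its level fell in IP from 9.75 ± 0.932 to 4.70 ± 0.911 CPM and in input from 3.88 ± 0.42 to 0.693 ± 0.267 CPM (SD, n = 3). Its call was kept in 2 of 12 fits without a library, with an edgeR adjusted p of 0.126 without tagged input replicate 1.

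Signalling genes were the largest hand-sorted group of the higher genes, with 36 of 149 and no share over all genes to set beside it. They included 3 of 62 genes of the FGF-ERK pathway, among them the growth factor gene Fgf15 (0.68) and the adaptor gene Shc1 (0.45), while the phosphatase gene Dusp3 was lower (-0.55). Of the pathway 4.84% were called higher and 1.61% lower, against 0.753% and 0.738% of all genes. The pathway's median was 0.08. Of 29 genes of the PI3K pathway 2 rose (6.90%, against 0.753% of all genes) and 0 fell. These were the catalytic subunit genes Pik3cb (0.50) and Pik3cd (0.48). For Pik3cb, IP went from 85.8 ± 8.56 to 135 ± 6.07 CPM, whereas for Pik3cd IP was level, at 29.8 ± 0.587 and 29.5 ± 0.711 CPM, and input fell from 24.4 ± 0.679 to 17.5 ± 1.98 CPM (SD, n = 3). Fits without a library kept the calls of Pik3cb and Pik3cd in 9 of 12, of Shc1 in 6, and of Fgf15 and Dusp3 in 2 each. The scaffold gene Dlg3 (0.64), the GTPase activator gene Arhgap1 (0.57) and the kinase gene Mink1 (0.48) kept theirs in all 12.

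Membrane transport and traffic accounted for 28 of the higher and 11 of the lower genes. Of 246 listed genes of vesicle traffic 5 were called higher (2.03%, against 0.753% of all genes) and 0 lower (edgeR). An unadjusted edgeR p under 0.05 was reached by 53 of the 246, and by 3011 of all 19778 genes. The 5 were Vamp2 (0.58), Rab18 (0.49), Vps39 (0.48), Arl8b (0.38) and Snx27 (0.35), which act in membrane fusion and in endosome and lysosome transport. Their list's median was 0.04. In the fits without a library the higher calls ran from 0 (without Trim71KO input replicate 1) to 14 (without tagged IP replicate 1). DESeq2 called 1 member lower. There were 2 lower calls without Trim71KO IP replicate 1, and 2 as well when Trim71KO input replicate 3 was left out. The transporter gene Mfsd9 stood at 16.6, 15.2 and 14.0 CPM in tagged IP and at 18.6, 18.5 and 22.8 CPM in Trim71KO IP, with input of 6.07, 7.52 and 6.87 CPM against 4.08, 4.64 and 4.93 CPM. IP was higher and input lower without overlap, and the log2 difference in the ratio was 0.97 (SE 0.18, edgeR adjusted p 0.00584), kept in all 12 fits without a library.

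Lin28a, which blocks maturation of let-7 microRNAs, stood at 480.4, 439 and 429 CPM in tagged IP and at 705, 754 and 804 CPM in Trim71KO IP, and its input rose as well, from 236 ± 14.2 to 301 ± 10.3 CPM (SD, n = 3). The IP groups were well separated, and the ratio rose by 0.40 (SE 0.10, edgeR adjusted p 0.0327). Klf4, a pluripotency transcription factor gene, went from 889.6 ± 73.3 to 1385 ± 41.8 CPM in IP, and its ratio rose by 0.38 (SE 0.09, edgeR adjusted p 0.0308). The nuclear receptor gene Nr6a1, which encodes the germ cell nuclear factor, fell in both fractions, and more so in input (90.4 ± 5.17 to 43.0 ± 2.27 CPM) than in IP (158 ± 10.8 to 111 ± 3.22 CPM), so its ratio rose by 0.56. Its call was kept in all 12 fits without a library, those of Lin28a and Klf4 in 3 each, with edgeR adjusted p values of up to 0.151 (Lin28a without Trim71KO IP replicate 3) and 0.139 (Klf4 without tagged input replicate 1). Of 28 pluripotency factors Klf4 was the 1 called, and the median was 0.04.

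Genes of the cell cycle and DNA repair were called higher in 10 and lower in 2 cases. The higher ones include Rad18 (0.52) and Ccar2 (0.49), which act in the response to DNA damage and kept their calls in 11 and 10 of 12 fits without a library, and Ccnd3 (0.44), the cyclin D3 gene, which kept it in 1 (edgeR adjusted p up to 0.166, without Trim71KO IP replicate 3). The microtubule-severing gene Spast rose by 0.55 (SE 0.09, edgeR adjusted p 0.00135). It stood at 92.3, 84.0 and 82.8 CPM in tagged IP and at 109, 115 and 118 CPM in Trim71KO IP, without overlap.

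**Figure D4:**
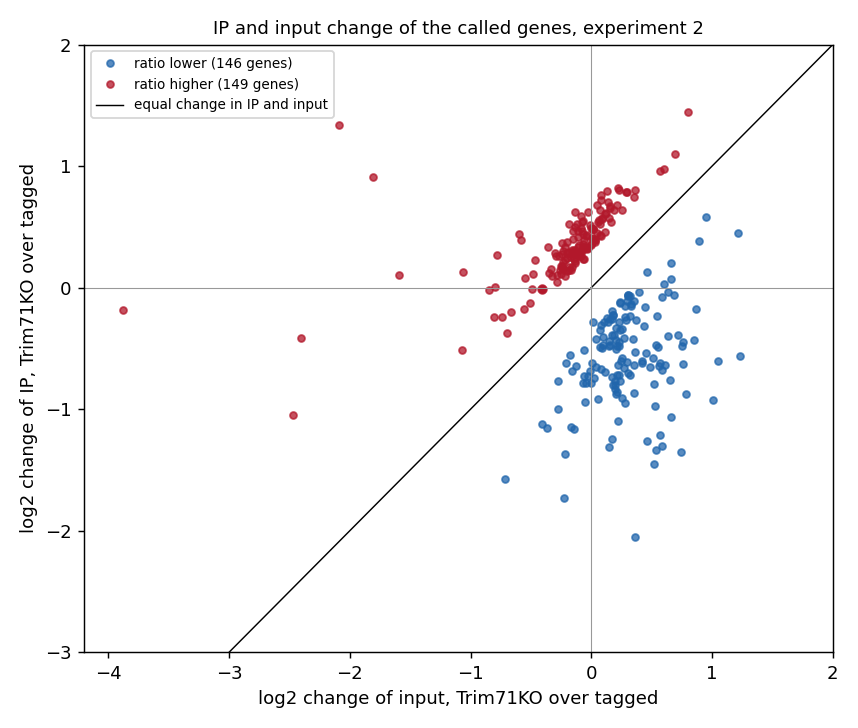
Log2 change from tagged to Trim71KO libraries in input (x axis) and in IP (y axis) of the 146 lower (blue) and 149 higher (red) genes; the diagonal marks an equal change in both. Most lower genes lie below 0 on the y axis, most higher genes above it, and 1 gene, Art3, is outside the axes.

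A ratio can change through its IP or through its input. In single contrasts of the same fit, 6600 genes (33.4%) differed between the genotypes in IP, 16.2% lower and 17.1% higher, and 5383 (27.2%) in input, 13.7% lower and 13.5% higher. An input difference can reflect fewer cells of a type or less RNA per cell, which cannot be told apart in bulk samples. Of the 146 lower genes 119 were lower in IP, 74 of them with no call in input, 39 with higher and 6 with lower input. Another 23 had higher input with no call in IP, and 4 were higher in both fractions, Plxnb2, Tead4, Gpat4 and Abcd3. Of the 149 higher genes 112 were higher in IP, 85 of them with no call in input, 17 with lower and 10 with higher input. For 32 the input was lower with no call in IP, and 5 were lower in both fractions.

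Genes of the mixed classes show how little IP need change. Plxnb2 stood at 122, 107 and 115 CPM in tagged IP and at 126, 143 and 200.4 CPM in Trim71KO IP, while its input went from 64.9, 58.7 and 67.0 CPM to 147, 143 and 153 CPM. Its IP was therefore higher, and the ratio fell from 1.81-fold to 1.06-fold (log2 difference -0.77, SE 0.17, edgeR adjusted p 0.0173, or 0.0614 without Trim71KO IP replicate 2). Cpeb1, which encodes a regulator of cytoplasmic polyadenylation, was level in IP, at 22.8 ± 1.21 and 22.4 ± 3.16 CPM, and fell in input from 13.8 ± 0.284 to 7.66 ± 0.803 CPM (SD, n = 3). Its ratio rose by 0.82 (SE 0.18, edgeR adjusted p 0.0161), a call that 3 of the 12 fits without a library did not keep (up to 0.0840, without Trim71KO IP replicate 3).

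Most lower genes stayed above the bead background. In a contrast that shares the Trim71KO libraries, 82 of the 146 had higher IP over input in Trim71KO than in untagged cells and 43 had lower. Nfix and Gm32031 were not called there, nor were Plxnb2 and Taok1, whose ratios were 1.06-fold and 0.970-fold in Trim71KO and 0.941-fold and 0.839-fold in untagged cells. Of the 149 higher genes 144 were above untagged and 0 below. Over all genes 23% were higher and 15.7% lower in that contrast, 38.7% in all. Against tagged cells, Ago2KO cells had lower IP over input for 42 of the lower and 34 of the higher genes and higher for 1 of each, where 4.16% of all genes were called, 3.77% lower and 0.384% higher. Side by side, the lower genes had a median log2 difference of -0.28 in Ago2KO and -0.75 in Trim71KO against tagged cells, and the higher genes -0.15 and 0.47. These comparisons share the tagged libraries, so no relation between them is drawn.

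The same contrast in experiment 1, on other libraries, gave 103 of the 146 lower genes as lower and 0 as higher, where 3.51% of all genes were called lower (3.79% in either direction). The 103 are part of 652 genes called lower there. Their largest falls in experiment 1 were again those of Pank3 (-3.10), Ndst1 (-2.74), Gm32031 (-2.53), Spty2d1 (-2.46) and Mbnl1 (-2.40). The count was 62 without tagged input replicate 3 and 59 without Trim71KO IP replicate 2 of experiment 2. Of the 55 lower genes that kept their call in every fit without a library, 54 were called lower in experiment 1. The 102 lower genes that the tag recovered had a median of -1.42 there, and 100 of them were called. For the 33 that it did not recover, the median was -0.01, with 17 below and 16 above 0, and 0 were called. The tag contrast of experiment 1 shares its tagged libraries with these values, so the split between the classes is a description. For the higher genes the counts were smaller. Of 145 measured in both, Marchf5 and Spast were called higher in experiment 1 (0.275% of all genes were), 0 were called lower, 101 lay above 0 and the median was 0.08.

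**Figure D5:**
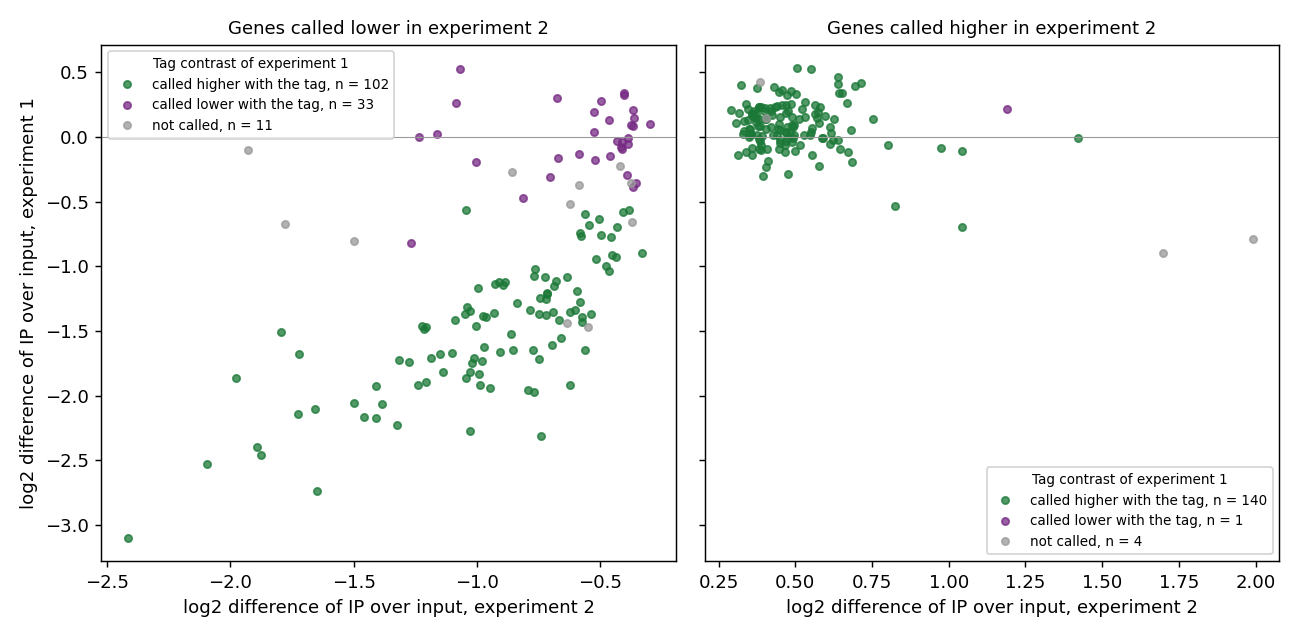
Log2 difference of IP over input between Trim71KO and tagged libraries in experiment 2 (x axis) and experiment 1 (y axis) for genes called lower (left) and higher (right) in experiment 2, coloured by the tag contrast of experiment 1. Lower genes recovered by the tag (green, n = 102) all lie below 0 in experiment 1, the 33 called lower with the tag (purple) scatter about 0, and the higher genes lie near 0; 4 higher genes not measured in experiment 1 are not drawn.

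A test of the difference between the experiments found 18 of 18620 genes (0.0967%), all with a more positive value in experiment 2, and 7 of them are among the 295. Mpped2, Phf20l1, Gxylt1, Plxnb2 and Hmgn2 fell in both experiments, and less in experiment 2. Cpeb1 was higher here and stood at -0.53 in experiment 1, where it was not called.

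The 8 tested genes reported as TRIM71 targets held 2 calls, Mbnl1 and Plxnb2, both lower, where 0.738% of all genes were called lower. Of the 8, 6 lay below 0, with a median of -0.14. Over the fits without a library that median ran from -0.31 (without Trim71KO IP replicate 1) to 0.02 (without tagged IP replicate 1). In the latter fit 4 of the 8 lay below 0, so the sign of the median depended on tagged IP replicate 1. In experiment 1 the median of the same 8 was -0.84, and 6 were called lower, where 3.51% of all genes were: Mbnl1 (-2.40), Plxnb2 (-1.97), Rbl2 (-1.04), Inhbb (-0.92), Rbl1 (-0.76) and Cdkn1a (-0.47). Cdkn1a, the gene of the cell-cycle inhibitor p21, was recovered 25.9-fold in both genotypes, and its log2 ratio differed by -0.00 (SE 0.20, edgeR adjusted p 0.998). Its IP libraries stood at 2104, 1592 and 1317 CPM in tagged cells and at 1522, 1451 and 1607 CPM in those labelled Trim71KO, and overlapped. For Rbl2, a pocket protein gene, the ratio was 18.1-fold and 15.0-fold, and for Inhbb, an activin subunit gene, 4.79-fold and 4.20-fold. Neither was called. Egr1, an immediate early gene, varied widely with the replicate number. Its IP stood at 203, 77.9 and 62.4 CPM in tagged and at 158, 62.3 and 45.2 CPM in Trim71KO replicates 1, 2 and 3. At each number the Trim71KO IP library was the lower one, and so was the Trim71KO input library. Raw input counts were 2880, 1102 and 983 in tagged and 1827, 736 and 566 in Trim71KO replicates. The IP over input of Egr1 was not called, and its log2 difference ran from -0.47 to 0.97 over the fits without a library.

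The list of miR-290 family targets, for mRNAs with a match to the seed AAGUGCU in earlier work, had 10 tested genes. Of these 0 were called (edgeR), 0 had an unadjusted p under 0.05 (3011 of all 19778 genes did), and 2 lay below 0 with a median of 0.15. These 2, Cdkn1a and Rbl2, are also in the TRIM71 list. The median ran from -0.04 (without tagged IP replicate 3) to 0.31 (without tagged IP replicate 1) over the fits without a library. Across the 8 other settings and the 12 fits without a library, DESeq2 included, 0 of the 10 were called as well. In experiment 1 the median was -0.43, and Cdkn1a and Rbl2 were the 2 called lower. The 7 GW182 and Argonaute genes held 0 calls (edgeR), with a median of -0.40 and 5 at an unadjusted p under 0.05. Over the fits without a library their median ran from -0.54 (without tagged IP replicate 3) to -0.20 (without tagged IP replicate 1). In experiment 1 their median was -0.95, and 4 of the 7 were called lower. Among them Tnrc6b stood at -0.51 (edgeR adjusted p 0.0732), Ago4 at -1.36 (0.100), Ago3 at -0.43 (0.214) and Ago1 at -0.35 (0.260), none past the threshold. Tnrc6b was called lower with DESeq2 (adjusted p 0.0227) and with the replicate block of each IP with its input (edgeR adjusted p 0.0134). It was also called without tagged IP replicate 3 (edgeR adjusted p 0.0442) and without Trim71KO IP replicate 3 (0.0453). Of 4 TRIM-NHL genes Trim71 was the 1 called. Trim2 rose in input from 44.0 ± 2.79 to 78.7 ± 3.10 CPM and in IP from 65.2 ± 2.7 to 104 ± 5.20 CPM (SD, n = 3), and its ratio differed by -0.16 (edgeR adjusted p 0.392).

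MicroRNA hairpins lay inside 3 of 132 lower genes with known bounds (2.27%), Pank3, Klhl15 and Plxnb2, inside 5 of 144 higher genes (3.47%), among them Nr6a1 with Mir181a-2 and Mir181b-2 and Ctdsp1 with Mir26b, and inside 3.42% of all genes. Strand was not compared. Several calls with known bounds were neighbours within 5000 bases. Calls without known bounds were not searched, so pairs that include them are not counted. Among lower genes 13 were, in 8 pairs of which 5 overlap, such as Zfp91 with Gm44505, Elk4 with Mfsd4a and Nr2c2 with Mrps25. Among higher genes the pairs were Rfx1 with Dcaf15 and Vamp2 with Per1. No such count was made over all genes tested, so the pairs are a description. Use of strand in the counting is not stated, so reads of overlapping genes cannot be told apart.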

How the data were processed

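RNA from anti-HA immunoprecipitates and matching inputs was sequenced as stranded total RNA. The authors deposited whole-number read counts per gene, per the file headers, with gene lengths; the submitters' processing notes name bcl2fastq 2.20, STAR 2.7.3a and the builds GRCm38 and mm10. The counting tool, its use of strand and any filter are not given in the sources used here. Counts entered the tests as deposited; no value is quoted from the deposited RPKM values, which are per length and library size, per the file headers. All 24 libraries of experiment 2 entered one edgeR 4.0.16 quasi-likelihood fit (TMM, filterByExpr, R 4.3.3), in which 19778 of 19866 rows were tested for (Trim71KO IP minus input) minus (tagged IP minus input), with Benjamini-Hochberg adjustment and a threshold of 0.05. SE is the absolute log2 difference divided by the root of F. CPM are counts scaled to 1e+06 per library after TMM. A fit of all 42 libraries tested the difference between experiments. The median SE was 0.18. Nothing says that libraries of a group came from more than dishes grown in parallel, so p-values measure the spread between these samples.

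Replicate numbers were taken to pair the genotypes because deviations from group means of same-numbered libraries correlated at 0.353, 0.247 and 0.375 in IP and 0.258, 0.338 and 0.390 in input (11258 genes). On simulated counts for this contrast (19633 genes) 43 of 100 genes changed by 0.5 and 93 of 100 changed by 1 on the log2 scale were recovered, with 11 false calls. The changed genes had a mean of at least 2 on the log2 CPM scale. Simulated libraries were independent, without the shifts shared by replicate number or the deviation of tagged IP replicate 1. Recovery and false calls in the real libraries can therefore differ.

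Alternatives were other scalings, DESeq2 1.42.0, other filters, only the 4 groups compared, replicate blocks and leaving out each library. Members and gene lists were chosen with earlier results of these data known. Genes are named if among the 15 largest falls or rises (mean of at least 2 on the log2 CPM scale, ratios not overlapping), if called members of the listed pathways, if different between experiments or if among the largest 3 of a class of IP and input change; other examples are said to be picked with values known. Of the rows, 3572 have no symbol and are not named, and 63 share a symbol. Positions and microRNA sequences are from RefSeq on GRCm38.p6. Some genes that the rule names are not reported here.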

Additional observations from a re-analysis of the deposited data

Results flagged for a closer look

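The log2 difference of IP over input between genotypes differed between the experiments for 7 of the 295 genes, of which 6 are given here, by an interaction test over the libraries of both (edgeR quasi-likelihood, Benjamini-Hochberg). All 7 were more positive in experiment 2. Mpped2, a phosphoesterase gene, stood at -0.74 here and -2.32 in experiment 1, a difference of 1.59 (SE 0.26, edgeR adjusted p 0.00507). Phf20l1, a chromatin reader gene, stood at -0.62 and -1.92, a difference of 1.30 (SE 0.22, edgeR adjusted p 0.00507). Gxylt1, a xylosyltransferase gene of Notch glycosylation, stood at -0.56 and -1.65 and differed by 1.10 (SE 0.19, edgeR adjusted p 0.00657). Cpeb1 stood at 0.82 and -0.53 and differed by 1.37 (SE 0.25, edgeR adjusted p 0.00857). Plxnb2 stood at -0.77 and -1.97, with a difference of 1.21 (SE 0.25, edgeR adjusted p 0.0279). Hmgn2, a nucleosome-binding protein gene, stood at -0.55 and -1.47, with a difference of 0.93 (SE 0.19, edgeR adjusted p 0.0279). With library size alone as the scaling, Hmgn2 was no longer called (edgeR adjusted p 0.0591). Each experiment has its own cultures and libraries, and experiment and batch cannot be told apart.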

How the results depend on the processing

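The 295 calls (146 lower, 149 higher) became 489 with library size alone, 541 with DESeq2 and 136 with only the 4 groups compared. They became 470 with the replicate block within IP and within input, and 522 with a replicate block of each IP with its input. In that second pairing same-numbered libraries correlated at 0.126, 0.183 and 0.209 in tagged and at 0.0794, 0.119 and 0.318 in Trim71KO cells, so 5 of the 6 pairs were over 0.1. Whether an IP and an input of 1 number come from the same dish is not given in the sources used here. The lower calls were 303 with DESeq2, 89 with only the 4 groups and 233 with the replicate block of IP with its input. The higher calls were 88 with RLE, 370 with library size alone, 238 with DESeq2, 78 with no filter on low counts and 47 with only the 4 groups, and 265 and 289 under the replicate blocks. Leaving out a library gave 98 to 562 calls, 66 to 283 lower and 32 to 363 higher, and 59 to 142 genes lower in both experiments. Taken as the difference of separate fits, 179 genes differed between the experiments, against 18. The causes were not tested. The replicate block within IP and within input changed no call of a gene given here. Over the named genes, smaller counts and these alternatives 3051 values were unchanged, 702 lost the call, 6 gained it and 42 were counts that moved. A count was taken as moved when it left a fixed range of ratios to the main one. Among genes called in either fit 0 reversed their sign. A gene called in neither could change sign and was taken as unchanged. An example is Egr1, at log2 differences of -0.47 to 0.97 over the fits without a library. In the self-test, changes of 0.5 were recovered in part. Its simulated libraries lack the shifts shared by replicate number, so it does not show how many changes were missed here.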
